A study of Mus musculus with 4 samples.

Results

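The regions described here are 5-hydroxymethylcytosine (5hmC) peaks that were present in ATDC5 chondroprogenitors at day 0 and had no overlapping peak in the chondrocyte list at day 20. They were taken from the day 0 peak list as autosomal peaks that did not overlap any day 20 peak by 1 bp, leaving out every fixed 100 kb bin with 3 or more day 0 peaks. This left 363 lost, unclustered peaks of 1050 day 0 peaks in all, of which 1026 were autosomal. The choice used the presence or absence of a peak at day 20, so that absence is a description and not a finding. Of the 802 autosomal day 0 peaks in bins with fewer than 3 of them, 45.3% were lost.

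ATDC5 is a mouse cell line that grows as cartilage progenitors and differentiates into chondrocytes under an insulin, transferrin and selenite supplement. Cultures were kept in DMEM/F12 with foetal bovine serum and ascorbic acid, per the labels' protocols. There were 4 libraries of genomic DNA captured for 5hmC with a kit, 2 from chondrocytes (labelled day 19 and day 20) and 2 from chondroprogenitors (day 0). Each stage was deposited as 1 list of peaks with a 10-fold enrichment in merged libraries, with 56695 readable peaks at day 20 and 1050 at day 0, so no spread between replicates could be measured and no comparison carries a test. Read depth and height per peak are unknown, the sources used here do not name the background of the 10-fold, and a peak missing from a list is not a measurement of absent 5hmC.

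5hmC is made from 5-methylcytosine by the TET dioxygenases, which can oxidise it further on the way to unmethylated cytosine. In many mammalian tissues it is found in the bodies of expressed genes and at distal regulatory elements. It is also stable enough to serve as a mark of its own, so a site can gain or lose it as cells differentiate.

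Few of the lost peaks reached a promoter, and the sequences of those that did are shown because a promoter can be read base by base here. Of the 354 lost peaks on the chromosomes covered by the promoter table, 2 overlapped a promoter window running from 250 bases before to 50 bases after a start site (0.565%, Wilson 95% interval 0.155 to 2.04%). Among the retained peaks, that is unclustered autosomal day 0 peaks that overlapped a day 20 peak, 8 of 431 did (1.86%, 0.943 to 3.62%), and the intervals overlap. Both windows are from RefSeq (GRCm38.p6), lie on the minus strand and are written 5′ to 3′, with the bases inside the lost peak in capitals.
Itln1 promoter, chr1:171535245-171535544: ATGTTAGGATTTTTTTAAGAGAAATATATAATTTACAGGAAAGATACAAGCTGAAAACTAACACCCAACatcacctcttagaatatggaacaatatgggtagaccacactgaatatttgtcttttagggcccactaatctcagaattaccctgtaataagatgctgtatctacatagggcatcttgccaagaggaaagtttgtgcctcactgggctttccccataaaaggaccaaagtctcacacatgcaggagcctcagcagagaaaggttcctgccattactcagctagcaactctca
Ywhag promoter, chr5:135934592-135934891: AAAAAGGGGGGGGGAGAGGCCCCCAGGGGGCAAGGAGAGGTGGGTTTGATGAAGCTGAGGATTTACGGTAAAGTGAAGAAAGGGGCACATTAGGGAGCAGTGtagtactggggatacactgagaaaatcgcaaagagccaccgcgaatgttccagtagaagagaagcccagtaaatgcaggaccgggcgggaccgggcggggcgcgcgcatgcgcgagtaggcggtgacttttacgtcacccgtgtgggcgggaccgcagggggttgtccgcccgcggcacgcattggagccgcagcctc
The 2 windows differ in base composition. The window of Itln1, which encodes the lectin intelectin, held no CpG dinucleotide and was 40.3% G or C, and the 69 bases shared with the peak were 27.5% G or C. The window of Ywhag, which encodes the gamma isoform of the 14-3-3 adaptor proteins, held 23 CpG dinucleotides, but only 1 of them fell in the 102 bases shared with the peak. The median of 31396 autosomal promoter windows was 7 CpG dinucleotides, and 22.1% of windows held at least 23. Both lost peaks lay on the upstream side of the start site, with midpoints at -235 bases from it in Itln1 and -213 bases in Ywhag (a negative value is upstream).

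A microRNA gene was also covered by a lost peak and is shown because it is the single microRNA gene that any of the 363 lost peaks overlapped. The peak at chr9:110281244-110281422 spanned the whole mature sequence of miR-6236 (chr9:110281353-110281371, plus strand, RefSeq GRCm38.p6), written with its seed at bases 2 to 8 in capitals.
mmu-miR-6236: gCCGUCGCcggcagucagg
This sequence of 19 bases is 78.9% G or C and has 3 CpG dinucleotides. The nearest day 20 peak was 18319 bp away.

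The lost peaks were narrow. Their median width was 126 bp (quartiles 107.5 and 141.5 bp, range 50 to 923 bp), against 146 bp for the 439 retained peaks (quartiles 130 and 187 bp) and 132 bp for the 151 lost peaks in clustered bins. Together they covered 47.1 kb. The share lost was lower in each wider class, being 90.9% of peaks under 100 bp (70 of 77, 82.4 to 95.5%), 48.7% of those from 120 to under 140 bp (130 of 267, 42.8 to 54.7%) and 17.5% of those of 200 bp or more (21 of 120, 11.7 to 25.3%). A wider peak has more bases that can overlap, and 435 of the 439 retained peaks lay wholly inside day 20 peaks. What width itself adds to the share lost was not tested. Autosomal day 20 peaks had a median width of 592 bp and a minimum of 176 bp. Below that minimum lay 90.1% of the lost peaks and 70.8% of the retained ones.

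**Figure D1:**
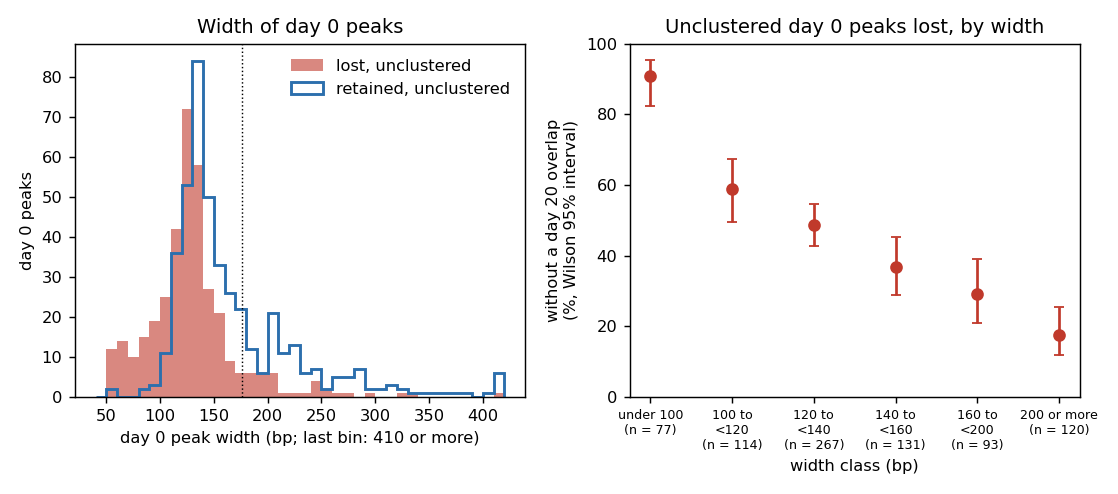
Left, number of day 0 peaks by width in bp for the 363 lost, unclustered peaks (filled) and the 439 retained, unclustered peaks (outline), with the narrowest day 20 peak (176 bp) as a dotted line. Right, percentage of unclustered day 0 peaks without a day 20 overlap in 6 width classes, with Wilson 95% intervals, at 90.9% under 100 bp and 17.5% at 200 bp or more.

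The line between lost and retained peaks was sharp for nearly all retained peaks and graded for the lost ones. Of the retained peaks, 435 of 439 (99.1%) lay wholly inside day 20 peaks, and the smallest overlap was 3 bp, at a peak of 225 bp on chromosome 13. On the other side, 14 lost peaks had a day 20 peak within 200 bp. The closest lay 2 bp away on chromosome 5 (chr5:136670491-136670581), followed by 10 bp in Tet1, 12 bp on chromosome 16 and 25 bp beside Pdss2. By the bin rule, 322 lost peaks were alone in their bin and 41 shared it with 1 other day 0 peak, while 24 lost peaks in bins with exactly 3 day 0 peaks fell outside.

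The lost peaks lay at a wide range of distances from the chondrocyte list, from beside a day 20 peak to far from any. The median distance from a lost peak to the nearest day 20 peak was 10390 bp (quartiles 3020 and 60195.5 bp). For retained peaks, measured to their nearest other day 20 peak, it was 8074 bp (quartiles 3624 and 15178.5 bp). Up to 10 kb, 176 of 363 lay that close (48.5%, 43.4 to 53.6%), against 58.1% of retained peaks measured to their nearest other day 20 peak (53.4 to 62.6%) and 62.0% of autosomal day 20 peaks. Between 10 and 100 kb lay 110 lost peaks (30.3%, 25.8 to 35.2%), against 38.7% of retained peaks (34.3 to 43.4%). Beyond 100 kb, the intervals of lost and retained peaks did not overlap. There lay 77 lost peaks (21.2%, 17.3 to 25.7%), against 14 retained peaks (3.19%, 1.91 to 5.28%) and 784 of the 56102 autosomal day 20 peaks. The same share was 31.8% (24.9 to 39.6%) for lost peaks in clustered bins. Retained peaks were chosen by having a day 20 peak, so the choice and the surroundings cannot be told apart.

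**Figure D2:**
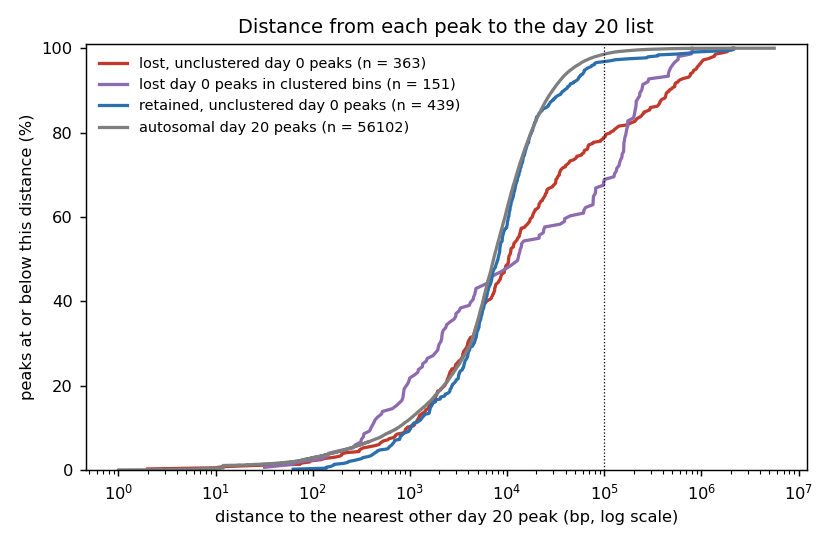
Cumulative percentage of peaks against the distance in bp (log scale) to the nearest day 20 peak other than any that overlaps it, for the 363 lost, unclustered day 0 peaks, the 151 lost peaks in clustered bins, the 439 retained, unclustered day 0 peaks and the 56102 autosomal day 20 peaks. At 100 kb (dotted line) 21.2% of the lost, unclustered peaks still lie farther away, against 3.19% of retained peaks.

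The surroundings were also thinner in day 20 peaks, which in part restates the distances. Within 50 kb the lost peaks had a median of 3 day 20 peaks (quartiles 0 and 6), against 5 for retained peaks (quartiles 3 and 7), and 26.4% had none there (22.2 to 31.2%), against 7.97% (5.79 to 10.9%). The difference at matched width is likewise a description, since the retained peaks were chosen by having a day 20 peak. Among peaks from 100 to under 160 bp wide, 19.6% of 245 lost peaks were over 100 kb from a day 20 peak (15.1 to 25.0%), against 8 of 267 retained peaks (1.53 to 5.80%). Wide and narrow lost peaks nevertheless differed. Of the 118 lost peaks at least as wide as the median day 0 peak (134 bp), 11.9% lay over 100 kb away (7.20 to 18.9%), against 25.7% of the 245 narrower ones (20.6 to 31.5%). By median distance the wide lost peaks lay nearer to a day 20 peak than equally wide retained peaks did (5621.5 against 8084 bp). Within 50 kb, however, they had a median of 4 day 20 peaks, against 6. The narrower lost peaks lay farther by median than narrower retained ones (13326 against 7920 bp).

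Relative to genes, the intervals of lost and retained peaks overlapped for each position class given here. A protein-coding gene held the midpoint of 172 of the 363 lost peaks (47.4%, 42.3 to 52.5%), against 50.8% of retained peaks (46.1 to 55.4%) and 54.1% of day 20 peaks (53.7 to 54.6%). More than 5 kb from every gene lay 30.6% of lost peaks (26.1 to 35.5%), against 27.1% of retained peaks (23.2 to 31.5%). The start or end of a protein-coding gene was within 1 kb of 15 lost peaks (4.13%, 2.52 to 6.71%), against 14 retained ones (3.19%, 1.91 to 5.28%). Inside genes whose strand the promoter table gave, the 134 lost peaks were spread along the gene body from start to end. The shares in 4 successive stretches of equal length were 23.9%, 29.9%, 25.4% and 20.9%. The other sets were spread likewise, with 29.7%, 24%, 25.1% and 21.1% of 175 retained peaks. For day 20 peaks the shares were 27.9%, 24.8%, 23.7% and 23.6%. A long noncoding RNA gene was overlapped by 40 of the 363 lost peaks, a pseudogene by 4 and a transcribed pseudogene by 2. These types were not counted separately for the other sets. A gene of any other type, outside protein-coding genes, held the midpoint of 33 lost peaks (9.09%, 6.55 to 12.5%). The same held for 44 retained peaks (10.02%, 7.55 to 13.2%) and 9.59% of day 20 peaks, so lost peaks did not stand out there.

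Wide lost peaks sat in genes more often than narrow ones. Of those at least as wide as the median day 0 peak, 61.9% had their midpoint in a protein-coding gene (52.9 to 70.1%), against 40.4% of the narrower ones (34.5 to 46.7%). Among retained peaks the corresponding shares were 52.4% (46.7 to 58.0%) and 47.6% (39.5 to 55.7%). Location also went with distance to the day 20 list. Of the 37 lost peaks within 1 kb of a day 20 peak, 21 were in a protein-coding gene (56.8%, 40.9 to 71.3%), and of the 77 over 100 kb away, 20 were (26.0%, 17.5 to 36.7%).

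The genes that held a lost peak usually held a chondrocyte peak elsewhere. Lost peaks overlapped 169 of 20665 autosomal protein-coding genes (0.818%), of which 129 also had a day 20 peak in the gene body (76.3%, 69.4 to 82.1%), against 42.2% of all these genes. Genes with a lost peak were also longer, with a median length of 96.6 kb, against 17.5 kb for all. In the longest length decile the share was 84.8% of 79 genes (75.3 to 91.1%), against 83.9% of all 2067, and in deciles 8 and 9 it was 72.0% in both. In deciles 1 to 7 it was 26 of 40 genes (49.5 to 77.9%), against 27.8% of all, and there the median length was 21.4 kb, against 9.77 kb. A retained day 0 peak, from clustered bins or not, was held by 12 of the 169 genes (7.10%), against 211 of the 20665 (1.02%). In the longest decile it was held by 9 of 79 (11.4%, 6.11 to 20.3%), against 117 of 2067 (5.66%, 4.74 to 6.74%), and these intervals overlap. Msi2 and Auts2 held 2 each.

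**Figure D3:**
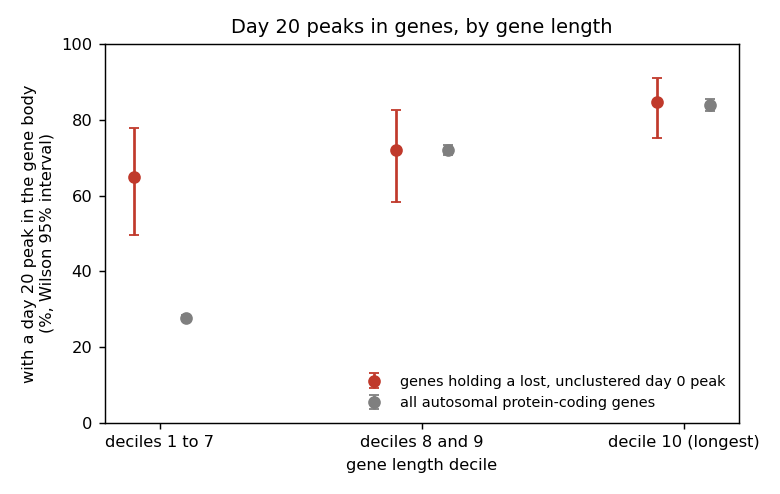
Percentage of protein-coding genes with a day 20 peak in the gene body, with Wilson 95% intervals, by gene length decile, for genes that hold a lost, unclustered day 0 peak (red) and for all autosomal protein-coding genes (grey). The shares nearly coincide in deciles 8 and 9 (72.0% in both) and in the longest decile (84.8% against 83.9%), and the intervals do not overlap in deciles 1 to 7.

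Among listed genes of cartilage, its control, the cell cycle and other cell types, the share with a lost peak was small but above that of all genes. Of 15 gene lists with 378 autosomal members, 7 members overlapped a lost peak (1.85%, 0.900 to 3.77%). The share of all autosomal protein-coding genes was 0.818%, which lies below that interval. The count was too small to set any list apart, and the listed genes were not matched for length. These were Sox9 and Runx1 of 30 chondrogenic transcription factors, Hapln1 of 29 cartilage matrix genes, Chst11 of 31 genes of proteoglycan synthesis, Igf2r of 24 insulin and IGF genes, Tet1 of 20 writers and erasers of 5-methylcytosine, and Cdk6 of 26 cell cycle genes. No lost peak overlapped a member of the lists for hypertrophy and mineralisation (23 genes), fibroblasts and mesenchymal progenitors (26), WNT (32), TGF-beta and BMP (37), hedgehog and FGF (24), adipocytes (16), skeletal muscle (19), neurons (20) or haematopoietic and immune cells (21). All 7 genes with a lost peak also carried day 20 peaks, as did 247 of the 378 list genes.

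Sox9, the master transcription factor of chondrogenesis, held its lost peak in the middle of a short gene. The peak of 188 bp (chr11:112785319-112785506, GRCm38) had its midpoint 2345 bp from the higher-coordinate end of the 5.55 kb gene body. A day 20 peak of 443 bp started 1473 bp farther along, still inside the gene. The surroundings were among the densest of any lost peak, with 14 day 20 peaks within 50 kb, a number matched by 1 other lost peak and passed by none, and 89 within 500 kb.

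Runx1, a runt-domain transcription factor, carried a lost peak of 173 bp (chr16:92626388-92626560) with its midpoint 25008 bp from the lower-coordinate end of its 225 kb body. The nearest of its 9 day 20 peaks was 3962 bp away, and 72 day 20 peaks lay within 500 kb. Hapln1 encodes the link protein that ties aggrecan to hyaluronan. Its lost peak of 125 bp (chr13:89570614-89570738) lay between 2 of the 3 day 20 peaks in the gene, 7058 bp from the nearer one, in a poorer region with 12 day 20 peaks within 500 kb.

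Chst11, which adds sulphate to the 4-position of chondroitin chains, was among the genes with a pair of lost peaks. They were 138 bp (chr10:83104291-83104428) and 223 bp wide (chr10:83181833-83182055), and day 20 peaks lay 3878 bp and 1254 bp from them. The gene body held 17 day 20 peaks and no retained day 0 peak. The lost peak in Igf2r, the receptor that clears IGF2, was 184 bp wide (chr17:12758047-12758230) and 311 bp from a day 20 peak. The authors assigned it to Airn, the imprinted noncoding RNA that overlaps Igf2r, and the body of Igf2r held 12 day 20 peaks. Cdk6, a kinase of the G1 phase, held a lost peak of 152 bp, 2489 bp from the nearest of its 9 day 20 peaks.

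Tet1, an enzyme that makes 5hmC, held a close pair of wide lost peaks. They measured 329 bp (chr10:62833265-62833593) and 264 bp (chr10:62833786-62834049), both among the 10 widest of the 363. A day 20 peak of 397 bp ended at 62833255, just 10 bp before the nearer one, so the pair sat directly beside a chondrocyte peak. The gene body held 7 day 20 peaks, and neither of the lost peaks lay within 1 kb of a gene end.

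The widest lost peak was in Myc, the proto-oncogene of cell growth. It spanned 923 bp (chr15:61987425-61988347) within a gene body of 5.02 kb. A second day 0 peak of 723 bp in Myc (61989264 to 61989986) was retained and ended at the same base as the single day 20 peak of the gene, which was 899 bp wide (61989088 to 61989986). The lost peak was 741 bp from that day 20 peak, so of the 2 day 0 peaks in Myc only the one at higher coordinates had a counterpart in the day 20 list.

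**Figure D4:**
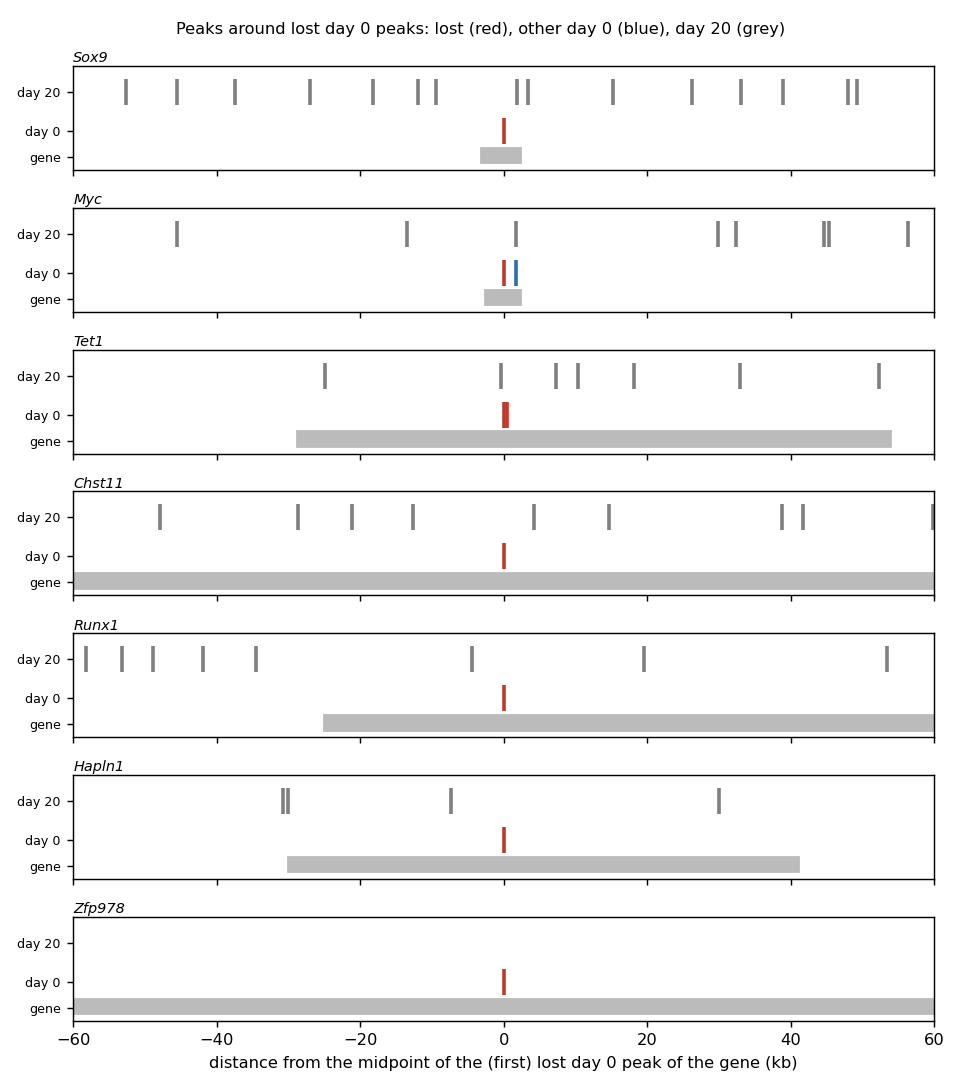
Peaks within 60 kb of a lost, unclustered day 0 peak in 7 genes, with distance in kb from the midpoint of the lost peak (the lower-coordinate one where a gene holds 2) on the x axis. Rows show day 20 peaks (grey), day 0 peaks (red for lost, blue for other) and the gene body (bar); each tick marks a midpoint and not a width. Day 20 peaks surround the lost peaks of Sox9, Myc, Tet1, Chst11, Runx1 and Hapln1, and none lies within 60 kb of that of Zfp978.

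Of the 10 widest lost peaks, 8 were in protein-coding genes, 1 of 292 bp on chromosome 17 was in the long noncoding RNA gene Gm36684, and 1 of 248 bp on chromosome 2 was farther than 5 kb from any gene. Besides Myc, with 1, and Tet1, with 2, they were in Kctd16, an auxiliary subunit of GABA-B receptors (330 bp), Ano2, a calcium-activated chloride channel (270 bp), Syt12 of the synaptotagmin family (252 bp), the podosome scaffold gene Sh3pxd2a (250 bp) and Pitpnm2, a phosphatidylinositol transfer protein (244 bp). Sh3pxd2a held 24 day 20 peaks, Pitpnm2 13, Ano2 11 and Syt12 2. Kctd16 had none in its 291 kb, and the nearest lay 76169 bp from the lost peak.

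Besides Tet1 and Chst11, 5 protein-coding genes held 2 lost peaks each and none held more. Fmn1, a formin that nucleates actin filaments and is needed for limb patterning, held peaks of 134 and 150 bp, 10918 and 5318 bp from a day 20 peak, and 20 day 20 peaks in its body. In Cdk8, the kinase of the Mediator complex, the peaks of 103 and 115 bp were neighbours, 10450 and 10297 bp from a day 20 peak, and the gene held 6 day 20 peaks. In Tada2b, an adaptor of histone acetyltransferase complexes, peaks of 232 and 153 bp lay side by side in a gene of 10.6 kb with 1 day 20 peak, 1537 bp from the nearer. Akap9, which anchors kinases at the centrosome and Golgi, had peaks of 130 and 79 bp and 1 day 20 peak in 152 kb. Zfp978, a zinc finger gene, had peaks of 110 and 121 bp and no day 20 peak in 267 kb. Over all lost peaks, 19 lay within 10 kb of another day 0 peak, which the bin rule limits.

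Lost peaks close to a gene end lay at genes of varied function. The widest, of 208 bp, was at -893 bases from the start site of Bid, which encodes a pro-apoptotic BH3 protein, and 1893 bp from a day 20 peak. Those at Psca, a GPI-anchored surface antigen (201 bp), and Crygn, a lens crystallin (143 bp), were inside short genes with no day 20 peak in the body. Peaks of 135, 133 and 132 bp lay beyond an end of Rnf41, a ubiquitin ligase, Nup43 of the nuclear pore, and Cfap70 of the ciliary axoneme, at 5015, 4017 and 5199 bp from a day 20 peak. Beside Ywhag (129 bp), Pdss2 of coenzyme Q synthesis (128 bp) and Lmntd1 (127 bp), a day 20 peak lay 199, 25 and 300 bp away. The lost peak inside the mitochondrial leucyl-tRNA synthetase gene Lars2 (98 bp) was 220 bp from one. Gtpbp2 (112 bp) and Itln1 (107 bp) were 9380 and 23068 bp from a day 20 peak.

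The 77 lost peaks over 100 kb from a day 20 peak had a median of 1 day 20 peak within 500 kb, and 35 of them had none. The median was 60 for the 37 lost peaks within 1 kb of a day 20 peak and 46 for the 139 at 1 to 10 kb. These counts largely restate the distances by which the peaks were split and are a description. Of the 77, 50.6% lay farther than 5 kb from any gene (39.7 to 61.5%), against 24.3% of the 37 closest (13.4 to 40.1%), and the intervals just overlap. A gene symbol from the authors stood beside 23.4% of these 77 (15.3 to 34.0%), against 67.6% of the 37 closest (51.5 to 80.4%). Their median width was 122 bp, against 128 bp.

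Some of these distant peaks lay in or near members of gene families. The families were picked for counting after the peaks had been seen, so the counts describe these peaks and support nothing further. Counted were olfactory and vomeronasal receptors, Zfp zinc fingers, defensins, Klra receptors, Cyp2c and Cyp3a enzymes, Skint genes, placental cathepsins and the immunoglobulin kappa locus. A gene of these families lay within 100 kb of 20 of the 77 (26.0%, 17.5 to 36.7%). The same held for 13 of the 286 other lost peaks (4.55%, 2.68 to 7.62%) and 19 of the 439 retained peaks (4.33%, 2.79 to 6.66%). Zfp genes were counted by symbol alone, in tandem or not. Without Zfp genes the counts were 18 of the 77, 7 of the 286 and 9 of the 439. Vomeronasal receptors, the pheromone sensors of the nose, accounted for 8 of the 20 and Zfp genes for 6, and some peaks met more than 1 family. On chromosome 4, lost peaks lay in Zfp600, Zfp993 and Zfp978, all over 500 kb from a day 20 peak. The Igk locus of antibody light chains held 2 lost peaks, 124599 and 1257196 bp from a day 20 peak. The sources used here do not say how reads from near-identical gene copies were placed, and its part in these peaks was not tested.

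Some lost peaks lay in long genes with no day 20 peak at all. Of the 169 genes with a lost peak, 40 had none (23.7%, 17.9 to 30.6%), against 57.8% of all autosomal protein-coding genes. In the longest decile 12 of 79 had none (15.2%, 8.91 to 24.7%), against 16.1% of all genes in that decile, which lies inside the interval. The longest were Grm8, a glutamate receptor (860 kb), Nkain3 (670 kb), Skint5 (522 kb), Rims2, a scaffold of the presynaptic active zone (486 kb), Zfp993 (479 kb), Ppfia2 of the same presynaptic machinery (464 kb), Ldb2 (364 kb) and Epha5, an ephrin receptor of axon guidance (363 kb). These genes were named after their values were seen. The lost peak in Epha5 was 1400624 bp from the nearest day 20 peak, that in Ppfia2 531597 bp and that in Grm8 116876 bp. The farthest of all was a peak of 60 bp on chromosome 15, 2081760 bp from any day 20 peak and farther than 5 kb from a gene.

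Chromosomes contributed unequally. Chromosome 5 had the most lost peaks, 43 of its 89 unclustered day 0 peaks (48.3%, 38.2 to 58.5%), at 0.283 per Mb. Over all autosomes that share was 45.3%. Chromosome 1 had the lowest density, with 13 lost peaks at 0.0666 per Mb, and the autosomes together had 0.148 per Mb. The share of unclustered day 0 peaks that were lost ranged from 31.0% on chromosome 1 (13 of 42, 19.1 to 46.0%) to 61.9% on chromosome 3 (13 of 21, 40.9 to 79.2%), and these intervals overlap. Distant peaks were unevenly placed. Chromosome 6 held 13 of the 77 over 100 kb from a day 20 peak, among its 30 lost peaks. Chromosomes 4, 5, 8 and 14 held 8 each, among 18, 43, 26 and 15 lost peaks. Chromosomes 2 and 11 held none, among 32 and 19 lost peaks. On chromosome 14 the distant peaks included 5 between positions 5841722 and 6932915, each at least 880506 bp from a day 20 peak. Without chromosome 6, the distant share was 19.2%.

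**Figure D5:**
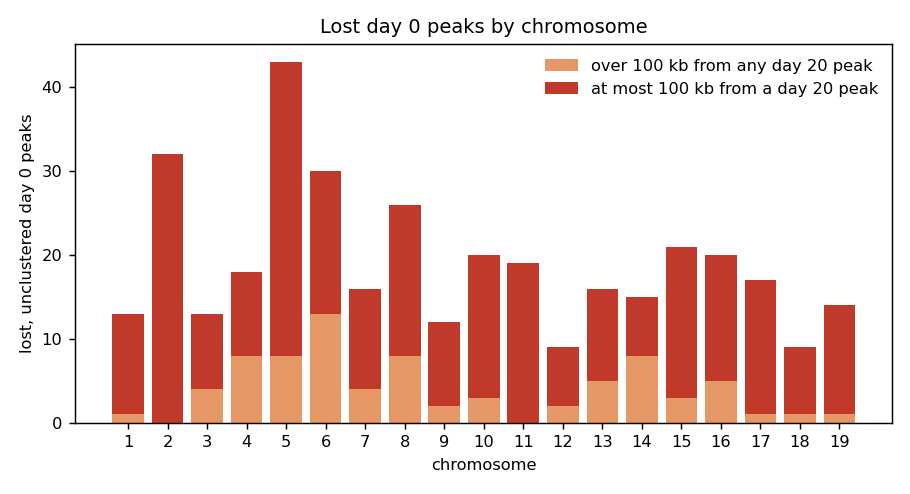
Number of lost, unclustered day 0 peaks on each autosome, split into those over 100 kb from any day 20 peak (light) and those at most 100 kb from one (dark). Chromosome 5 has the most lost peaks (43 of 89 unclustered day 0 peaks) and chromosome 6 the most distant ones (13 of 30 lost peaks). Chromosomes 2 and 11 have no distant ones.

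The authors named a gene for 196 of the 363 lost peaks (54.0%, 48.9 to 59.1%), against 56.3% of retained peaks (51.6 to 60.8%). Of 193 that matched the gene table, 160 overlapped their own gene (82.9%) and 30 more lay within 10 kb of it, against 217 of 246 retained peaks (88.2%) and 29 more.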

How the data were processed

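The 4 libraries were ATDC5 genomic DNA enriched with the Hydroxymethyl Collector kit, per the labels' protocols. Peaks were deposited as 1 list per stage, with start and end positions (bp), a gene symbol and a transcript accession. Per the file headers, a list holds the peaks of 1 stage's merged samples at 10-fold enrichment. The submitters' processing notes list FastQC, cutadapt, BWA, MACS 1.4.2 and the build GRCm38 (mm10), without saying what each did. The sources used here do not say whether the day 19 library entered the day 20 list. Of 56698 day 20 entries, 3 had no readable end and were left out.

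Widths count both end bases, and a distance is the difference between the nearest ends. Genes came from RefSeq GRCm38.p6, without strand or exons, and start sites from its promoter table, which matched 354 of the 363 peaks by chromosome. No genome sequence was used, so the planned base composition and repeat content were not computed. Chromosome spans end at the last gene or peak. Shares have Wilson 95% intervals, which cover counting error only.

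The members, gene lists and comparisons were chosen with earlier results of these data known. Named genes were list genes with a lost peak, genes with 2 of them, genes at the 10 widest, and up to 12 with an end within 1 kb, the widest peaks taken first. Other genes were named after their values were seen. On simulated lists, 200 of 200 planted peaks and distances were recovered, with 0 false. Python 3.11.15, numpy 2.4.6, pandas 2.3.3, scipy 1.17.1 and matplotlib 3.10.9 were used.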

Additional observations from a re-analysis of the deposited data

How the results depend on the processing

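No paired analysis was possible because each stage was deposited as 1 merged list, and for the same reason no library could be left out. The number of lost peaks was 326 when peaks within 1 kb counted as shared, 364 when sharing needed 50% of the day 0 peak covered, 322, 426 and 514 with bins of 2 or more, of 5 or more or no bins left out, 376 with bins shifted by 50 kb and 374 with sex chromosomes kept. Of 56 alternatives, 48 stayed within the interval of the reported value or, for counts, within 1.5 times of it. Keeping only lost peaks at least as wide as the median day 0 peak moved the share in protein-coding genes to 61.9%, the median distance to a day 20 peak to 5621.5 bp, the share beyond 100 kb to 11.9%, the density to 0.0480 per Mb, the share of genes with a day 20 peak to 82.9% and the share with the authors' symbol to 65.3%. Fewer members lower the density by construction, and for the others the cause was not tested. Wider windows gave 17.9% within 5 kb of a gene end and a median of 34 day 20 peaks within 500 kb. List genes with a lost peak numbered 5 to 9. The alternatives on the share beyond 100 kb and the width range of 100 to under 160 bp were chosen after seeing the data. Base and repeat content were not run.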

Other observations

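Day 0 peaks off the autosomes were not among the 363. On the X chromosome 11 of 16 day 0 peaks had no day 20 overlap, and none lay in a bin with 3 or more day 0 peaks. On the mitochondrial chromosome 5 of 8 had none, and all 8 shared 1 bin. On the Y chromosome there was no day 0 peak.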
